A study of Mus musculus with 16 samples.

Results

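Aminoacyl-tRNA synthetases are the enzymes that attach each amino acid to its tRNA. The genes described here are the rows of the expression table whose name is the letter of an amino acid followed by ars, with or without 1 or 2 at the end, together with Eprs, Farsa, Farsb, Fars2, Aimp1 and Aimp2. This rule found 39 genes of 27987 gene names, or 43 entries of 28618. They are 20 genes for cytosolic enzymes, 17 for mitochondrial enzymes (names ending in 2) and 2 for the scaffold proteins Aimp1 and Aimp2. The question was how their transcripts stood in oocytes with a conditional loss of the proteasome subunit gene Psma7, and how they moved as the oocyte matured into an egg.

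RNA was sequenced from 4 groups of mouse cells with 4 libraries in each. GV oocytes, not yet in the first meiotic division and with an intact nucleus (the germinal vesicle), came from WT and Psma7 cKO females. So did the MII eggs, collected after ovulation and labelled as MII, metaphase of the second division. The paper reports that part of the oocytes ovulated by cKO females had stopped earlier, at the GV stage or within the first division. Whether the cKO egg pools were sorted by stage is not given in the labels. Stage within these pools was not tested, so egg differences between genotypes, and changes on cKO maturation, were not shown to be stage-matched. The cKO carries floxed Psma7 and Zp3-Cre, a Cre driven by a zona pellucida gene promoter that is active in growing oocytes and not in follicle cells, so the gene is lost only after growth has begun. The females were 3 to 4 weeks old and had been given 5 IU PMSG, a hormone that stimulates follicle growth. GV oocytes were taken 44 h later, and eggs 14 to 16 h after hCG, the ovulation trigger, with cumulus cells removed in 0.3% hyaluronidase. Each library was made from a pool of oocytes (5 according to the labels) by Smart-seq2, which amplifies polyadenylated RNA from an oligo-dT primer, so each value is a pool and not an animal. The labels do not say whether pools of one group came from different females, so the p-values cover the spread between pools.

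In the cytosol each amino acid has its own enzyme, except that Eprs charges both glutamate and proline, and the phenylalanine enzyme is built from the products of Farsa and Farsb. The enzymes of 8 of these genes (Dars, Eprs, Iars, Kars, Lars, Mars, Qars and Rars) are held together with Aimp1, Aimp2 and Eef1e1 in the multi-synthetase complex, and the other 12 genes encode enzymes outside it. Mitochondria translate their own few proteins with a separate set of nuclear-encoded synthetases, while Gars and Kars each encode the cytosolic and the mitochondrial form of their enzyme, and no mitochondrial glutamine enzyme exists. Uncharged tRNA activates the kinase Gcn2 (Eif2ak4), which raises translation of the transcription factor Atf4, and cytosolic synthetase genes are among the known Atf4 targets. Fully grown oocytes are transcriptionally silent and translate stored mRNA, and many of these mRNAs are degraded during maturation.

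Values are FPKM, fragments normalised to transcript length and library size, so they are comparable between genes of different length and each is a share of its library. Less of a transcript in a cell and more of all other RNA cannot be told apart in such a share, nor can a fall in RNA per cell be seen in it. The libraries were estimated to hold 10.5 to 15.7 M fragments. Psma7 itself was at 165 ± 25.3 FPKM (SD, n = 4) in WT GV oocytes and 14.6 ± 2.82 in cKO GV oocytes, and at 126 ± 32.1 and 39.7 ± 20.2 in WT and cKO eggs. All 10 oocyte markers examined were above 1 FPKM in the mean of every group, and the 14 cumulus and granulosa genes summed to 17.3 to 23.8 FPKM over the 16 libraries, of which Cyp19a1 (6.21 to 15.2), Kitl (3.24 to 7.16), Nr5a2 (1.94 to 3.94) and Cyp11a1 (0.273 to 2.63) gave the largest parts, with Amh, Foxl2, Lhcgr and Ptx3 under 0.1 FPKM throughout. Replicates of a group correlated at r = 0.965 or more across transcripts, and cKO egg replicate 3 was the farthest from its own group (r = 0.974 with the mean of the others). Among GV libraries, WT replicate 3 was the lowest of its group for 13 of the 18 cytosolic enzymes at 1 FPKM or more, against 37.3% of all entries. In the cKO group, replicate 1 was the lowest for 13 of 18, against 29.3% of entries, and replicate 3 the highest for 11 of 18, against 27.7%.

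Promoter sequence is shown for the genes that carry the letters of the element bound by Atf4 with a C/EBP partner, because this element is the known route by which amino acid shortage acts on synthetase genes. The letters TGATGNAA were searched on both strands of RefSeq windows (GRCm38.p6) that run from 250 bases before to 50 after each start site. Windows existed for 29 of the 39 genes, Mars being matched as Mars1. The cytosolic genes without a window were Cars, Hars, Lars, Nars, Rars, Vars and Wars. The letters were found in 5 of 13 cytosolic genes with a window (Aars, Gars, Iars, Tars and Yars), in 0 of 14 mitochondrial genes and in 0 of 2 scaffold genes, against 4.51% of all 27025 genes with a window. Each 30-base stretch below is read along the strand of its gene, with the matched letters in capitals, at its GRCm38.p6 position.
Aars, chr8:111033840-111033869: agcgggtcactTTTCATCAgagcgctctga
Gars, chr6:55037960-55037989: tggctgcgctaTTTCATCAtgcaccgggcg
Iars, chr13:49682126-49682155: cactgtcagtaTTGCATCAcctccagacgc
Tars, chr15:11399655-11399684: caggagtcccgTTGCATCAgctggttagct
Yars, chr4:129189895-129189924: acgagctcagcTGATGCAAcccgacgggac

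The Yars match reads along the gene, and the other matches shown lie on the opposite strand. A match of letters is a description of the sequence and does not show that a factor binds there.

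WT GV oocytes held most cytosolic synthetase transcripts at moderate to high levels and most mitochondrial ones at low levels. The median FPKM was 28.5 over the 20 cytosolic genes and 2.31 over the 17 mitochondrial genes, and 18 of 20 and 14 of 17 reached 1 FPKM, against 38.2% of all entries. Rars, the arginine enzyme, had 265, 269.9, 271 and 263 FPKM in the 4 WT GV libraries. Qars, the glutamine enzyme, had 146, 145, 125 and 154.5, and Farsb, the beta subunit of the phenylalanine enzyme, had 133.5, 144.5, 139 and 151. Rars stood above both without overlap, while Qars and Farsb overlapped each other. Iars (81.5 ± 6.55, SD, n = 4) and Nars (61.9 ± 5.36) followed, and between Farsa (37.8 ± 2.86), Gars (36.4 ± 4.80), Kars (35.0 ± 2.61) and Dars (34.6 ± 3.10) the library ranges overlapped.

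The 3 lowest members were close to zero in every group. Hars2, the mitochondrial histidine enzyme, had 0.0960, 0.105, 0.128 and 0.0786 FPKM in WT GV libraries. Yars, the cytosolic tyrosine enzyme, had 0.199, 0.0726, 0.0985 and 0.0905, and Vars, the cytosolic valine enzyme, had 0.422, 0.224, 0.121 and 0.409 in the highest of its 3 entries. By the estimated depth these values rest on at most 5.9 fragments per library for Hars2, 9.9 for Yars and 26.8 for Vars, and the other 2 Vars entries were at 0 in 30 of 32 values. Translation in any cell needs valine and tyrosine enzymes. The values are therefore given only as listed, and the gene annotation behind the table is not given in the sources used here.

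**Figure D1:**
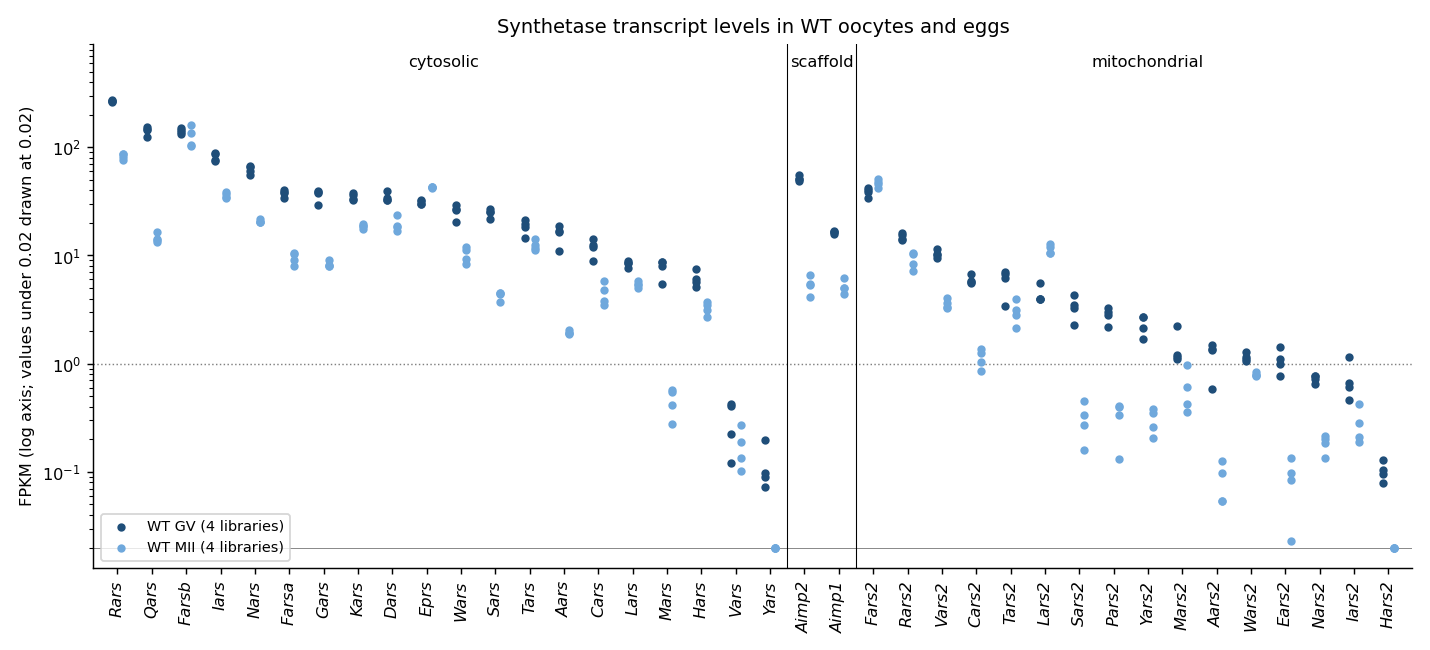
FPKM (log axis) of synthetase and scaffold genes in the 4 WT GV and 4 WT MII libraries, 1 point per library, ordered within cytosolic, scaffold and mitochondrial genes by their WT GV mean, with values under 0.02 drawn at 0.02 and a dotted line at 1 FPKM. Rars leads at 267 FPKM in GV oocytes, Vars, Yars and Hars2 lie under 1 FPKM at both stages, and for Eprs, Fars2 and Lars2 the egg points sit above the GV points.

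Paired by amino acid, the cytosolic transcript exceeded the mitochondrial one in 14 of 17 pairs in WT GV oocytes, with a median ratio of 11.1. The widest gap was for isoleucine, with Iars at 113 times Iars2 (0.724 ± 0.305 FPKM). Mitochondrial genes were ahead for valine (Vars2 10.4 against Vars 0.294) and tyrosine (Yars2 2.31 against Yars 0.115), where the cytosolic gene was near zero. For phenylalanine, Fars2 was paired with Farsa alone, and Fars2 (38.7 ± 3.27) and Farsa (37.8 ± 2.86) overlapped. The other subunit gene, Farsb (142 ± 7.56), was above Fars2 in every WT GV library, so this pair depends on the subunit chosen. Fars2 alone made up a large part of the mitochondrial sum of 97.1 ± 3.72 FPKM, which was 8.94 ± 0.178% of the summed enzyme FPKM and 5.57 ± 0.354% with Fars2 left out.

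The subunits of one enzyme were not at equal levels. Farsb exceeded Farsa 3.77 ± 0.241 times in WT GV libraries, where the enzyme holds equal numbers of both subunits. In WT eggs the ratio was 13.2 ± 2.33, the libraries lying between 10.1 and 15.2. Aimp2 exceeded Aimp1 3.15 ± 0.157 times in WT GV oocytes. In WT eggs that ratio was 1.06 ± 0.247, the libraries lying on both sides of equality, between 0.818 and 1.33. These ratios were taken within a library, so a common scaling of the library does not enter them.

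In GV oocytes no synthetase gene differed between genotypes past the threshold, an adjusted p under 0.05 by limma over all entries tested. Of the 34 members with a mean of at least 1 FPKM, 0 were higher and 0 lower in Psma7 cKO, against 0.0994% of the 11062 entries tested called higher and 0.0181% called lower. At an unadjusted p under 0.05 the count was 1 member, Wars2, the mitochondrial tryptophan enzyme, against 843 entries higher and 339 lower over all tested. Its 4 WT libraries read 1.14, 1.09, 1.28 and 1.06 FPKM and the cKO libraries 1.65, 1.31, 1.48 and 1.44. The groups did not overlap, and the log2 fold change was 0.36 (SE 0.14, adjusted p = 0.401).

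The remaining GV differences were small. The cytosolic median log2 fold change was 0.07 and that of all entries tested 0.04. Leaving out WT replicate 3 or cKO replicate 3, named above as lowest and highest for many of these enzymes, turned its sign (-0.02 and -0.01). For mitochondrial enzymes the median was 0.16, all 14 tested members had values above zero, and leaving out cKO replicate 3 gave a median of 0.09. All entries leaned the same way, with 843 higher and 339 lower at an unadjusted p under 0.05 by limma. The share of all entries above zero was not counted. Members measured in the same libraries are not independent, so their common sign is only described. Among cytosolic enzymes, Farsa had 20.0, 51.4, 51.9 and 37.9 FPKM in the cKO GV libraries against 38.0, 38.6, 33.8 and 40.7 in WT, so that the Farsb to Farsa ratio of cKO replicate 1 was 9.13. In that library Farsb was the highest of the group, at 183 FPKM, and the cytosolic sum the lowest, at 956.

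In MII eggs, 4 cytosolic synthetase transcripts were higher in Psma7 cKO than in WT, namely Qars, Aars, Farsa and Rars, by 1.39 to 1.89 times in mean FPKM. Of the 25 members tested, 4 were higher, all of them among the 17 cytosolic enzymes tested, and 0 were lower, against 6.53% of the 9492 entries tested called higher and 1.49% called lower. After rescaling by the median ratio the split over all entries was 510 higher and 207 lower in place of 620 and 141, and 3 members (not Rars) were higher. None of the 6 mitochondrial enzymes and 2 scaffold genes tested passed. The other 3 cytosolic and 11 mitochondrial genes had a mean under 1 FPKM and were not tested by limma. Of these 14, Mars, picked after its values were seen, was higher in cKO without overlap, at 0.637 to 0.894 FPKM beside 0.275 to 0.573 in WT (exact permutation p = 0.0286, two-sided and unadjusted), and none was lower without overlap. Among the entries tested, 13.6% were higher and 7.06% lower without overlap, and the share among entries under 1 FPKM was not counted.

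Qars joins glutamine to its tRNA within the multi-synthetase complex. The WT eggs had 14.3, 16.6, 13.2 and 13.9 FPKM and the cKO eggs 22.8, 21.5, 38.6 and 26.9. Every cKO library was above every WT library, cKO replicate 3 being the highest, with a log2 fold change of 0.88 (SE 0.18, adjusted p = 0.0307 by limma) and an exact permutation p of 0.0286, the smallest that 4 against 4 libraries can give. Without cKO replicate 3 it still passed, and it passed in 3 of 8 fits with a library left out.

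Rars, also in the complex, had 81.3, 86.3, 87.5 and 75.7 FPKM in WT eggs and 106, 94.2, 139 and 119.5 in cKO eggs. The groups did not overlap, with the highest value again in cKO replicate 3. The log2 fold change was 0.46 (SE 0.12, adjusted p = 0.0450 by limma). Rars had the smallest fold of the 4 and the highest level.

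Aars, the alanine enzyme with a promoter match shown above, had 1.94, 1.92, 2.05 and 1.87 FPKM in WT eggs and 3.90, 2.42, 4.43 and 2.94 in cKO eggs. The cKO libraries spread more widely than the WT libraries and none overlapped them, with a log2 fold change of 0.78 (SE 0.19, adjusted p = 0.0437 by limma). In the GENCODE M21 annotation, 1326 of the 5750 exonic nucleotides of Aars are shared with Exosc6 on the same strand, so reads from this stretch cannot be assigned to either gene.

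Farsa, the alpha subunit of the phenylalanine enzyme, had 9.14, 8.06, 10.3 and 10.6 FPKM in WT eggs and 15.8, 12.2, 19.7 and 13.9 in cKO eggs. Again no cKO library fell within the WT range, with a log2 fold change of 0.68 (SE 0.16, adjusted p = 0.0373 by limma). Its partner subunit Farsb was at 125 ± 27.7 in WT and 123 ± 16.1 in cKO eggs (log2 fold change -0.01, SE 0.16), so the Farsb to Farsa ratio was 8.36 ± 2.44 in cKO eggs beside 13.2 ± 2.33 in WT eggs, with overlapping ranges.

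**Figure D2:**
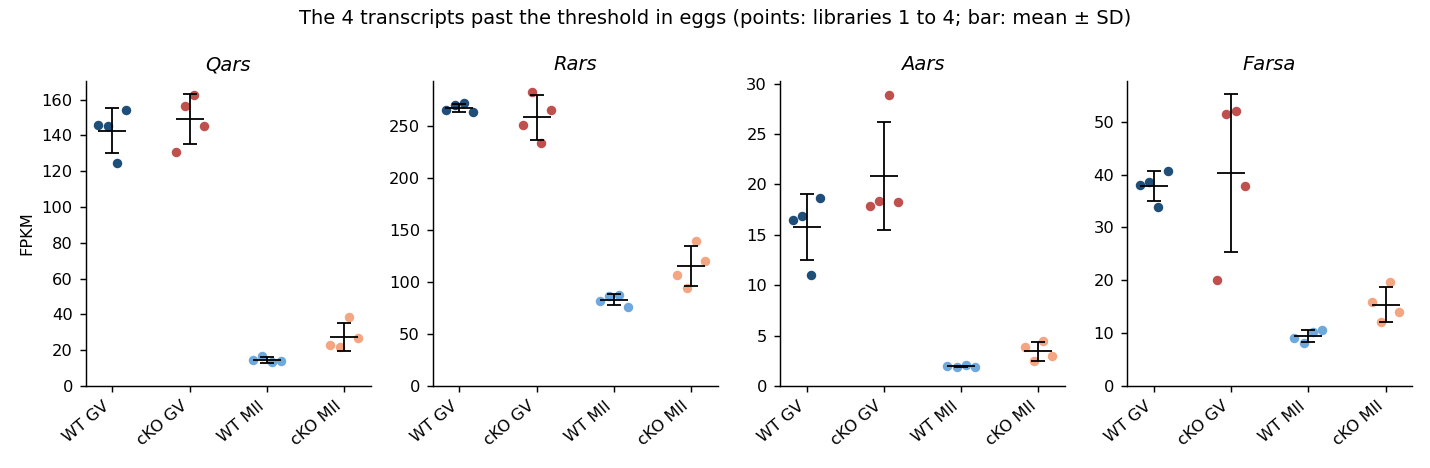
FPKM of Qars, Rars, Aars and Farsa in each of the 16 libraries (points, replicates 1 to 4 from left to right; horizontal bar and whiskers, mean ± SD of the 4 libraries of a group; each panel has its own linear axis from 0). In eggs the cKO points lie above all WT points for each gene, while the GV groups overlap, and all egg values lie under all GV values, most narrowly for Farsa, whose highest cKO egg library is at 19.7 and lowest cKO GV library at 20.0.

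These 4 calls depended on the libraries compared. Leaving out any of the 4 WT egg replicates, or cKO egg replicate 4, left 0 members past the threshold, leaving out cKO egg replicate 1 or 3 left Qars alone, and leaving out cKO egg replicate 2 gave 7 members (those 4 with Kars, Nars and Sars). The count over all entries moved in the same fits, from 620 higher to 3 without WT egg replicate 3 and to 1024 without cKO egg replicate 2. Over those fits the log2 fold change stayed between 0.71 and 0.99 for Qars, 0.64 and 0.93 for Aars, 0.55 and 0.79 for Farsa, and 0.36 and 0.55 for Rars.

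Of the 13 cytosolic enzymes that did not pass in eggs, 9 had values above zero, with a median log2 fold change of 0.27. The median of all 17 tested was 0.30, beside 0.07 for all entries. In single cKO libraries the median difference from the WT egg mean was 0.40, 0.17, 0.54 and 0.29 for replicates 1 to 4, beside 0.12, 0.04, 0.07 and 0.02 over all entries. The adjusted p was 0.0549 for Kars, 0.0664 for Sars, 0.0686 for Nars and 0.0795 for Iars, with log2 fold changes of 0.31, 0.51, 0.34 and 0.29. Counted by libraries that do not overlap, 7 of 17 cytosolic enzymes were higher in cKO eggs (Aars, Farsa, Iars, Kars, Qars, Rars and Sars), against 13.6% of entries tested. Lower without overlap was 1 cytosolic enzyme, Eprs, against 7.06% of entries, at 42.8 ± 0.571 FPKM in WT and 37.9 ± 1.47 in cKO eggs (log2 fold change -0.17, SE 0.06, adjusted p = 0.0933).

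Of the promoter-match genes, Gars (0.36, SE 0.14, adjusted p = 0.129), Iars (0.29) and Tars (0.18, SE 0.14, adjusted p = 0.421) did not pass in eggs and Yars was not tested. Qars and Farsa, which passed, had a window without the letters.

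Mitochondrial enzymes in eggs had a median log2 fold change of 0.17 over the 6 tested, which was 0.096 without cKO egg replicate 1 and 0.0401 in the fit of all 16 libraries. Cars2, the mitochondrial cysteine enzyme, had the highest of them, with 1.25, 0.861, 1.37 and 1.03 FPKM in WT and 1.68, 2.19, 2.77 and 1.38 in cKO eggs (0.75, SE 0.23, adjusted p = 0.0687). The cKO minimum lay just above the WT maximum. The scaffold gene Aimp2 had 5.32, 5.48, 4.13 and 6.66 FPKM in WT eggs and 5.46, 6.41, 23.5 and 10.7 in cKO eggs. Replicate 3 stood far above the other cKO libraries there, the groups overlapped, and the log2 fold change of 0.87 had an SE of 0.41 (adjusted p = 0.194). Aimp2 shares 487 of its 1193 exonic nucleotides with Eif2ak1 on the opposite strand, and Smart-seq2 does not mark strand.

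**Figure D3:**
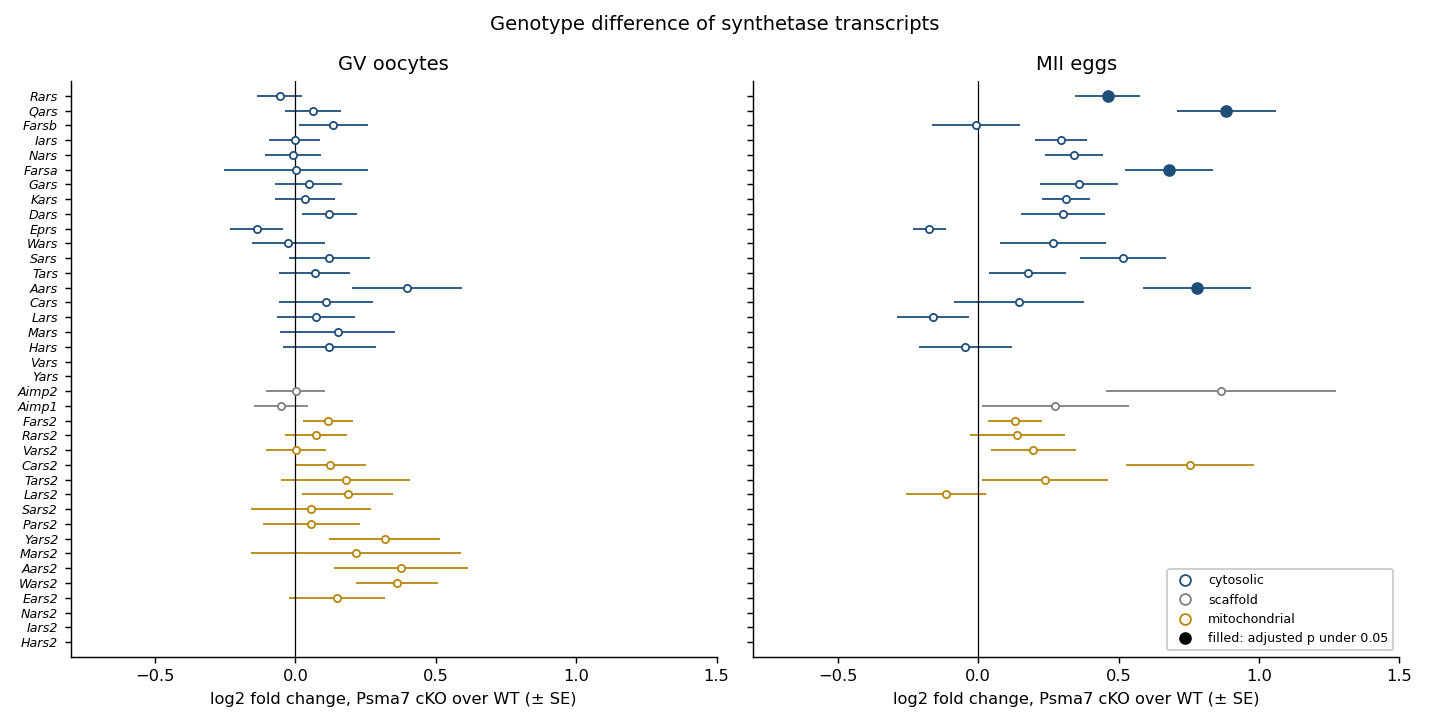
log2 fold change of Psma7 cKO over WT (point, whiskers ± SE, limma) for members tested in GV oocytes (left) and MII eggs (right), coloured by cytosolic, scaffold or mitochondrial gene and filled where the adjusted p was under 0.05. No point is filled in GV oocytes, and Rars, Qars, Farsa and Aars are filled in eggs.

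From GV oocytes to MII eggs in WT, most synthetase transcripts tested fell and 3 rose. These are values of RNA primed at its poly(A) tail, and tail length was not measured. In WT and cKO alike, a change in priming between stages cannot be told apart from one in transcript amount. Of 31 members tested, 26 were lower and 3 higher, against 52.4% of the 10475 entries tested called lower and 26.1% called higher. Among cytosolic enzymes 16 of 18 fell and 1 rose, among mitochondrial enzymes 8 of 11 fell and 2 rose, and both scaffold genes fell. Mars and 5 mitochondrial enzymes had means under 1 FPKM in eggs and were tested through their GV level, so a lower egg level was built into their selection. Of the 25 members at 1 FPKM or more at both stages, 15 of 17 cytosolic enzymes, 4 of 6 mitochondrial enzymes and both scaffold genes fell. The median log2 fold change was -1.39 over the cytosolic and -1.05 over the mitochondrial enzymes tested, beside -0.44 over all entries. Over the members at 1 FPKM or more at both stages it was -1.34 for cytosolic and -0.83 for mitochondrial enzymes, and the mitochondrial median was -1.54 with a floor of 0.1 FPKM and -0.23 among entries of at least 5 FPKM. Rescaling the libraries by their median ratio moved the median of all entries by 0.23, to -0.22, and the cytosolic median to -1.16.

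With values under 1 FPKM set to 1, Qars had the lowest log2 fold change and fell by 3.30 (SE 0.10, adjusted p = 7.73e-10 by limma), from 143 ± 12.6 to 14.5 ± 1.47 FPKM (SD, n = 4). Aimp2, with 51.2, 51.3, 55.2 and 48.5 FPKM in GV oocytes, was second and fell by 3.27 (SE 0.13, adjusted p = 4.98e-09). Aars fell by 2.99 (SE 0.16, adjusted p = 3.14e-08), from 16.5, 16.9, 11.1 and 18.6 FPKM in the GV libraries. Every egg library was below every GV library for these genes. This order rests on the floor. By the share of the GV mean kept in WT eggs, among members at 1 FPKM or more in WT GV oocytes, Mars, the methionine enzyme, stood at 5.89%, under the 10.2% of Qars, and since its egg values of 0.275 to 0.573 FPKM were set to 1 in the fit, its log2 fold change of -2.92 understates that fall. The mitochondrial genes Aars2, Ears2 and Sars2 were also under Qars by this share, all with egg values under 1 FPKM.

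Lars2, Eprs and Fars2 rose as shares of their libraries, which does not show that their amount per cell rose. Lars2, the mitochondrial leucine enzyme, had 3.95, 4.00, 3.96 and 5.61 FPKM in WT GV oocytes and 12.1, 10.5, 10.5 and 12.7 in WT eggs (log2 fold change 1.40, SE 0.14, adjusted p = 4.74e-06 by limma). Eprs, the glutamate and proline enzyme and the largest protein of the complex, had 30.1, 32.5, 32.1 and 29.9 in GV oocytes and 43.4, 42.1, 42.5 and 43.1 in eggs (0.46, SE 0.07, adjusted p = 0.000139). Fars2 had 34.3, 38.5, 40.2 and 41.9 in GV oocytes and 47.8, 50.8, 45.5 and 42.3 in eggs (0.27, SE 0.09, adjusted p = 0.0191). The stages did not overlap for any of the 3, but for Fars2 the lowest egg library was only just above the highest GV library, and it no longer passed without WT GV replicate 1 or without WT egg replicate 1 or 2. Farsb (log2 fold change -0.20, SE 0.14, adjusted p = 0.190) and Mars2 (-0.44, SE 0.21, adjusted p = 0.0728) did not pass in either direction, and the sign of Farsb turned with rescaling.

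Within the multi-synthetase complex, log2 fold changes in WT ranged from -3.30 for Qars to 0.46 for Eprs. Lars, Kars, Dars, Iars and Rars lay between, at -0.64, -0.90, -0.84, -1.17 and -1.69. As shares of a library, the summed cytosolic FPKM in WT eggs was 421 ± 26.9 beside 990 ± 45.7 in GV oocytes, or 42.5%. It was 36.2% for the enzymes of the complex, 52.6% for the other cytosolic enzymes and 15.5% for the 2 scaffold genes. Gene by gene the order of the enzymes was the reverse. At 1 FPKM or more in GV oocytes, the median kept was 48.95% over 8 complex enzymes and 35.36% over 10 others. Farsb, at 142 FPKM in GV oocytes and 125 in eggs, made up a large part of the other enzymes' sums of 382 and 201. The mitochondrial sum stood at 80.4% of its GV value, with Fars2 and Lars2 carrying it, and its share of the summed enzyme FPKM was 15.7 ± 1.18% in eggs. Without Fars2 that share was 6.97 ± 0.282% in eggs beside 5.57 ± 0.354% in GV oocytes.

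**Figure D4:**
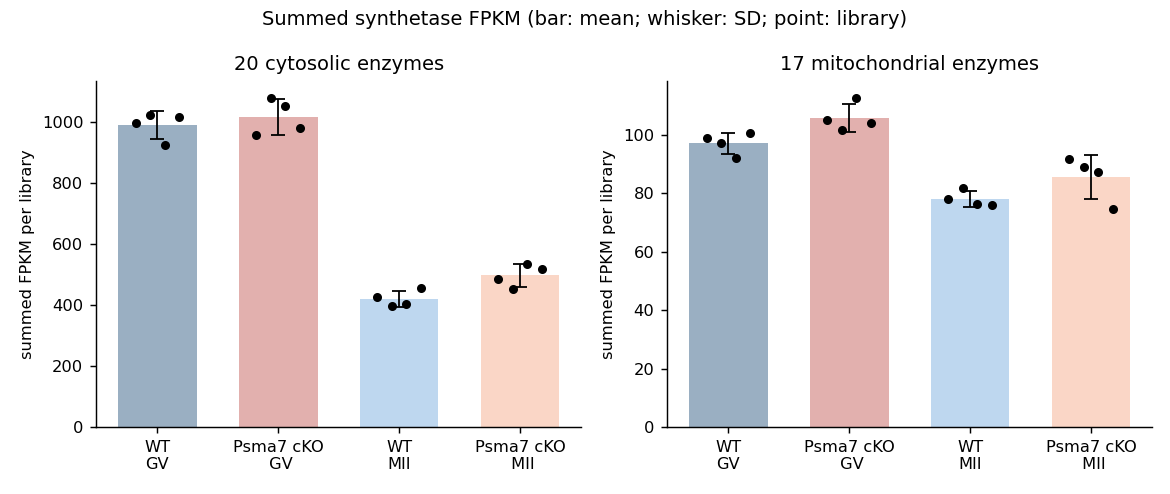
Summed FPKM of the 20 cytosolic (left) and 17 mitochondrial (right) enzymes in each library (points), with the group mean (bar) and SD (whiskers, n = 4), on linear axes from 0 that differ between panels. The cytosolic sum is 990 and 1017 in WT and cKO GV oocytes and 421 and 498 in WT and cKO eggs, and the mitochondrial sum 97.1, 106, 78.1 and 85.7.

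In Psma7 cKO most synthetase transcripts also fell from GV oocytes to eggs. Of 32 members tested, 27 were lower and 3 higher, against 51% of the 10748 entries tested called lower and 23% called higher. Mars and 6 mitochondrial enzymes were under 1 FPKM in cKO eggs and, as in WT, tested through their GV level, and of the 25 at 1 FPKM or more at both stages 15 of 17 cytosolic enzymes, 4 of 6 mitochondrial enzymes and both scaffold genes fell. The 3 that rose, again as shares, were Lars2 (log2 fold change 1.10, SE 0.16, adjusted p = 0.000248), Eprs (0.42, SE 0.09, adjusted p = 0.00212) and Fars2 (0.29, SE 0.10, adjusted p = 0.0230). In the cKO libraries Lars2 had 5.01, 5.25, 4.03 and 5.55 FPKM in GV oocytes and 13.8, 10.4, 9.48 and 9.09 in eggs. Eprs had 26.7, 27.2, 32.4 and 27.1 and then 36.6, 39.2, 36.8 and 39.3. Fars2 had 40.1, 41.5, 42.0 and 43.9 and then 53.4, 57.4, 50.2 and 43.9. The last of the Fars2 egg values only just exceeded the highest GV value, and the rise was no longer past the threshold without cKO GV replicate 1 or without cKO egg replicate 1 or 2.

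The lowest 3 fitted values in cKO were those of Mars, Aars and Qars. Mars went from 7.13, 7.65, 12.1 and 7.53 FPKM to 0.894, 0.638, 0.690 and 0.637. All 4 egg values were set to 1 and Mars was tested through its GV level, so its fitted log2 fold change of -3.07 compares the GV values with a constant and is given without its p. Aars fell by 2.61 (SE 0.23, adjusted p = 9.95e-06), from 17.9, 18.3, 28.9 and 18.2 FPKM. Qars fell by 2.48 (SE 0.18, adjusted p = 3.71e-06), from 131, 157, 163 and 145.5 FPKM. The cytosolic median was -1.13 and the mitochondrial median -1.11 (-1.07 and -0.77 over the members at 1 FPKM or more at both stages), beside -0.42 over all entries, and rescaling moved the last to -0.17 and the cytosolic median to -0.88. The split over all entries was then 3314 higher and 4574 lower in place of 2472 and 5482, with 3 members higher and 26 lower. The cytosolic sum in cKO eggs, 498 ± 36.9 FPKM, was 49.0% of that in cKO GV oocytes, the sum of the complex enzymes 45.7%, and the mitochondrial sum 80.8%.

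For 25 of the 34 members at 1 FPKM or more in WT GV oocytes, the egg mean was a larger percentage of the GV mean in cKO than in WT, among them 14 of 18 cytosolic enzymes, against 59.6% of the 10938 entries at that level. Of the 4 genes called higher in cKO eggs, Qars stood at 18.4% in cKO and 10.2% in WT, Farsa at 38.2% and 25.2%, Rars at 44.5% and 30.9%, and Aars at 16.4% and 12.3%. The 4 cytosolic enzymes on the other side were Eprs, Farsb, Hars and Lars. The egg genotype comparison and the WT maturation share the WT egg libraries, so these values are set side by side and are not independent of each other. Whether the cKO egg pools held oocytes that had stopped at an earlier stage was not tested.

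Whether the genotype difference itself differed between stages was tested as an interaction over all 16 libraries. Of 32 members tested, 0 passed in either direction, against 1.07% of the 10615 entries called higher and 0.188% called lower. At an unadjusted p under 0.05 there were 6 of the 32 members, against 1347 entries higher and 534 lower of the 10615 tested. The smallest adjusted p values were those of Qars (0.82, SE 0.21, adjusted p = 0.0600) and Rars (0.52, SE 0.14, adjusted p = 0.0803). The egg differences of Qars, Rars, Aars and Farsa were therefore not shown to exceed those in GV oocytes. Without cKO egg replicate 1, 2 or 3 the count of members was 1, 2 or 1. Over all entries 157, 605 or 123 were then called higher, in place of 114.

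**Figure D5:**
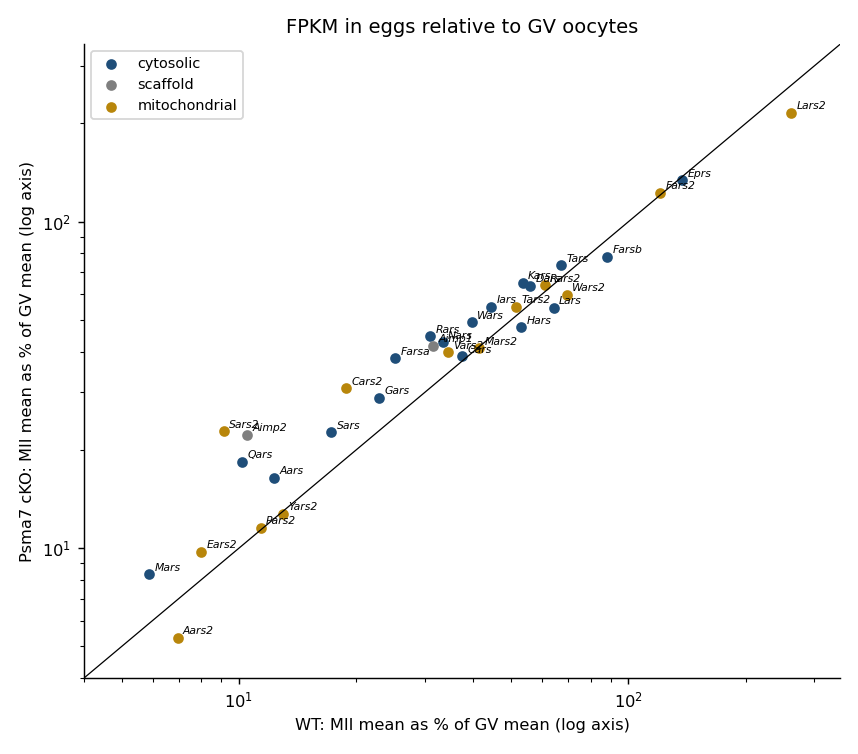
Mean FPKM in MII eggs as a percentage of the mean in GV oocytes for members at 1 FPKM or more in WT GV oocytes, in WT (horizontal) and Psma7 cKO (vertical), on log axes, with the line of equal percentages. Lars2, Eprs and Fars2 lie above 100%, Mars, Aars2 and Ears2 lie at under 10% in both genotypes, and Qars, Aimp2, Sars2, Farsa and Rars are among those above the line. For Sars2 the egg libraries overlapped, at 0.161 to 0.451 FPKM in WT and 0.227 to 1.22 in cKO. For Aimp2 they also overlapped, and cKO egg replicate 3, at 23.5 FPKM, stood far above the other cKO libraries.

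Other genes that act around tRNA charging were taken as a list of 43 genes found in the table (tRNA processing, editing, elongation factors, selenocysteine synthesis, and the Gcn2 and Atf4 pathway). In GV oocytes 0 of 39 tested differed between genotypes in either direction, where 0.0994% of all entries were called higher and 0.0181% lower. In eggs 3 of 30 were higher in cKO and 0 lower, against 6.53% and 1.49% of all entries. Phgdh, the first enzyme of serine synthesis, had 0.994, 0.914, 0.933 and 1.05 FPKM in WT eggs and 2.51, 2.72, 6.55 and 5.77 in cKO eggs (log2 fold change 1.98, SE 0.31, adjusted p = 0.0191 by limma). Eef1e1, the third scaffold protein of the multi-synthetase complex, had 35.3, 23.0, 28.5 and 29.4 in WT and 43.3, 39.5, 59.7 and 45.1 in cKO (0.69, SE 0.16, adjusted p = 0.0363), and Eef1b2, a subunit of the elongation factor that reloads Eef1a with GTP, had 32.9, 31.4, 33.1 and 26.6 and then 53.0, 44.3, 44.7 and 37.1 (0.53, SE 0.12, adjusted p = 0.0350). No cKO library fell within the WT range for these 3 genes. Phgdh alone passed the interaction (1.80, SE 0.36, adjusted p = 0.0308), 1 of 38 tested. Its WT egg values of 0.914 to 0.994 FPKM were set to 1 in these fits, so the spread of WT eggs entered them smaller than measured.

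Atf4 mRNA, picked from the list after its values were seen, had 37.6, 54.4, 51.8 and 30.2 FPKM in WT eggs and 179, 80.7, 86.8 and 54.1 in cKO eggs. The log2 fold change was 1.10 (SE 0.34, adjusted p = 0.0714 by limma), and its lowest cKO library overlapped the WT range. In GV oocytes Atf4 was at 90.8 to 143 FPKM in WT and 156 to 184.5 in cKO, without overlap (0.57, SE 0.15, adjusted p = 0.185). The share of all entries without overlap there was not counted. In eggs Ddit3 (1.33, SE 0.47, adjusted p = 0.103), Gcn1l1 (0.07, adjusted p = 0.771) and Eif2ak4 (-0.18, adjusted p = 0.257) of the same pathway did not pass. Asns, Trib3, Psat1, Chac1, Sesn2 and Impact had means under 1 FPKM there and were not tested. During WT maturation 7 of 37 genes of the list rose and 21 fell, against 26.1% and 52.4% of all entries. In cKO 5 of 38 rose and 22 fell, against 23% and 51%. Ssb, which binds the ends of new tRNA transcripts, rose by 1.58 and Trnt1, which adds the terminal CCA to tRNA, by 0.93 on the log2 scale in WT. Rtcb, the ligase that joins tRNA exons after splicing, fell by 5.41 and Phgdh by 4.84, the latter with egg values under 1 FPKM set to 1.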

How the data were processed

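The authors quantified polyadenylated RNA of 16 libraries as FPKM, and the deposited FPKM table was used without further scaling. The submitters' processing notes name TopHat2 2.1.1, Cufflinks 2.2.1 and mm10, and the gene annotation is not given in the sources used here. Groups and replicates came from the sample labels. ERCC spike-in RNA was added, but 0 ERCC entries are listed. Depth was estimated from the steps between FPKM values under 0.6 at 10.5 to 15.7 M fragments per library (median 13.6). No counting interval was attached.

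Values below 1 FPKM were set to 1 and log2 was taken. Entries whose mean in the libraries of a comparison reached 1 FPKM were fitted with limma 3.58.1 (R 4.3.3), moderated by empirical Bayes along an intensity trend. Low members' fold changes are understated by this floor. P-values were adjusted by Benjamini-Hochberg over all entries tested, with a threshold of 0.05. Each comparison used its own 8 libraries, and the interaction all 16. For a gene with several entries the one with the highest mean was used. For single genes a two-sided exact permutation test was run (70 arrangements, smallest p = 0.0286). Sums and ratios were described without a test. On simulated data, limma recovered 98% of 200 transcripts changed 3-fold in GV oocytes and 96% in eggs, with 9 and 8 false calls. The egg calls named above were smaller changes, by 1.39 to 1.89 times, and recovery at that size was not simulated.

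The members, gene lists and tests were chosen with earlier results of these data known. Values in every library are given for members past the threshold in a genotype comparison, for the 3 highest and 3 lowest in WT GV oocytes, and for the 3 highest and 3 lowest changes on maturation. Of the other tRNA charging genes, those past the genotype threshold and the 2 highest and 2 lowest on WT maturation are named. Any other gene was named after its values were seen. One mitochondrial gene and 1 promoter stretch are not reported here singly.

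Same-numbered libraries of different groups deviated from their group means with correlations of -0.496 to 0.285, so the numbers were not taken as pairs. Alternatives were other floors, filters, scalings and fits, a replicate block, and each library left out. Positions and exon overlaps came from GENCODE M21 (GRCm38), and promoter windows from RefSeq (GRCm38.p6). The remaining steps ran in Python 3.11.15 (matplotlib 3.10.9, scipy 1.17.1, pandas 2.3.3, numpy 2.4.6).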

Additional observations from a re-analysis of the deposited data

Results flagged for a closer look

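In 118 groups of 4 libraries (each member at 1 FPKM or more in that group), Dixon's test at the 95% level marked 10, where chance marks about 1 in 20. In cKO GV oocytes, replicate 3 was the marked library 4 times, and each time the highest. Aars was at 28.92 FPKM there and at 17.9 to 18.3 in the other 3 libraries. Eprs was at 32.43 beside 26.7 to 27.2, Mars at 12.09 beside 7.13 to 7.65, and Rars2, the mitochondrial arginine enzyme, at 18.31 beside 14.8 to 15.0. In the same library Asns, the asparagine synthetase that makes the amino acid, was at 15.3 FPKM beside a mean of 2.07 in the other 3, and Sesn2, a sensor protein of the Atf4 pathway, at 3.44 beside 1.59, while Atf4 itself was at 156 beside 173 and Phgdh at 32.4 beside 33.4. Asns and Sesn2 belong to the list of other tRNA charging genes and were picked after their values were seen.

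In WT GV oocytes replicate 3 was lowest for Gars, at 29.3 FPKM beside 37.9 to 39.7, and for Aars2, the mitochondrial alanine enzyme, at 0.5843 beside 1.34 to 1.48. Lars2 was high in replicate 4 (5.609 beside 3.95 to 4.00) and Mars2 in replicate 1 (2.218 beside 1.11 to 1.21). In WT eggs Nars was high in replicate 4 (21.78 beside 20.2 to 20.3) and Sars low in replicate 1 (3.69 beside 4.42 to 4.51). Leaving out any GV library left 0 members past the threshold between GV genotypes.

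Phgdh differed between stages in its genotype difference, by an interaction of 1.7951 on the log2 scale (SE 0.36, adjusted p = 0.0308 by limma), with 0.19 in GV oocytes and 1.98 in eggs.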

How the results depend on the processing

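Direction was kept under all alternatives run for the 16 changes named for single genes and comparisons. The count of members higher in cKO eggs was 4, and 0 to 7 over fits with a library left out. It was 0 with the replicate block, where the adjusted p was 0.0655 for Qars, 0.0515 for Farsa, 0.0720 for Aars and 0.0730 for Rars, and over all entries 101 were higher and 7 lower. The numbers do not pair the samples, so this is given only as a setting. With all 16 libraries in 1 fit 8 members were higher, though not Farsa (adjusted p = 0.0664). Aars missed the threshold with 1 FPKM added (0.0503), and Rars with rescaling (0.0594) or no intensity trend (0.0674). Fars2 missed it with the replicate block in WT (0.0605) and cKO (0.0692) maturation, and without a filter in cKO (0.0524). The block changed no other of the 16 calls. Interaction calls were 0, 1 among entries of at least 5 FPKM (Qars), and 0 to 2 with a library left out. Over all entries the calls higher were 114, 192 and 37 to 605 in these fits.

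Median log2 fold changes moved as follows. In eggs the mitochondrial median was 0.0000 with no filter and 0.0401 in the fit of all 16 libraries. For WT maturation the cytosolic median was -1.2534 with 1 FPKM added, -1.1633 after rescaling, -0.9086 with no filter and -1.5063 to -1.2826 with a library left out. The mitochondrial one was -1.5400 with a floor of 0.1 FPKM, -0.4014 with no filter and -0.2293 at 5 FPKM or more. For cKO maturation the cytosolic median was -0.8756 after rescaling and -0.8740 with no filter, and the mitochondrial one -0.8616, -0.6574, -0.1885 at 5 FPKM or more, and -1.3161 to -0.8038 with a library left out. The cytosolic interaction median was 0.1086 with no filter. The no-filter fits hold many entries set to 1 in every library, for which limma warned that its moderation is unreliable. With low values set to 1, mitochondrial enzymes held 9.126% of the summed enzyme FPKM of WT GV libraries and 16.99% of that of WT eggs. Without Fars2, an alternative chosen after seeing the data, their share was 5.57%, 5.937%, 6.971% and 6.484% in WT GV, cKO GV, WT MII and cKO MII libraries.

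The filter at 1 FPKM keeps 14 of the 39 genes out of the egg comparison, so these were compared only as listed. Mars was the 1 gene of the 14 whose groups did not overlap, where 13.6% of the entries tested were higher and 7.06% lower without overlap.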
